A study of Mus musculus with 11 samples.

Results

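The genes described here build and serve the primary cilium, the single non-motile cilium of most vertebrate cells. They are 57 genes chosen by symbol and known role, with earlier results of these data known, and all 57 are listed among the 16755 genes of the deposited table. By the role of their proteins they were sorted into 6 IFT-A genes, 16 IFT-B genes, 4 dynein-2 genes, 11 BBSome genes, 5 membrane signaling genes and 15 transition zone genes. Gene expression was measured by poly-A RNA sequencing in maxillary molar tooth germs at E14.5. The libraries came from 4 wild-type (Cilk1+/+), 4 Cilk1-/- and 3 Cilk1-/-;PCS1–MRCS1△/△ replicates, the last of which are named compound mutants below. Each replicate pooled n = 6, without a statement on whether embryos or germs were counted. By sample numbering the libraries form 2 label sets. Set 1 holds 3 wild-type and 3 Cilk1-/- libraries, and set 2 holds 1 of each and the 3 compound mutants. The labels do not say what separates the sets. Cilk1-/- mice lack exon 6 of the ciliary kinase gene Cilk1 in every tissue, after germline deletion with EIIa-Cre. The compound mutant lacks that exon too and carries in addition a deletion of 70 kb between PCS1 and MRCS1, a stretch that holds regulatory elements of Shh. All mice were on a C57BL/6 background, embryos were described as littermates, and both sexes were mixed.

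A primary cilium is assembled by intraflagellar transport (IFT), in which trains of protein complexes move along its microtubules. IFT-B works with kinesin motors on the way to the tip, and IFT-A works with the dynein-2 motor on the way back. The BBSome carries membrane receptors out of the cilium, and the transition zone at its base is the gate that sorts what may enter. Hedgehog signals are received in this organelle, and the kinase encoded by Cilk1 acts at its tip on the turnaround of the trains. The comparisons address whether transcripts of the transport and gate machinery differ when this kinase, or the kinase together with Shh regulatory sequence, is lost. Bulk samples cannot tell fewer cells of a type from less RNA per cell.

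Genes of this machinery are known targets of RFX factors, which bind a sequence called the X-box. In 300 bases around the gene start, an X-box consensus was found in 6 of the 51 members with a RefSeq promoter, compared with 0.691% of all promoters of that length. They are printed because they show the matched letters in members described further on, and 4 of the 6 belong to the transition zone. The matched bases are in capitals, and each stretch is read along the strand of its gene. The consensus was searched on both strands. Tctn2, Ift57 and Bbs1 match it on the strand opposite to the gene, so their capitals fit it only as the reverse complement.
B9d2: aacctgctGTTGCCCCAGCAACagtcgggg
Tctn2: gattggagGTTACCATGGCTACtggtcctc
Tctn1: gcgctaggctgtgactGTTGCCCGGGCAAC
Ahi1: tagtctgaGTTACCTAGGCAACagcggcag
Ift57: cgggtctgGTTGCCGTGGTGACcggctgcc
Bbs1: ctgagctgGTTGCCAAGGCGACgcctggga

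In GRCm38.p6, the B9d2 stretch lies at chr7:25680788-25680817 on the plus strand, with the match starting at base 17 counted from the gene start. The Tctn2 stretch lies at chr5:124598679-124598708 on the plus strand, and its match starts at base -62, ahead of the gene. Of the others, Tctn1 (chr5:122264411-122264440, minus strand, base 37), Ahi1 (chr10:20952560-20952589, plus strand, base 22) and Bbs1 (chr19:4906605-4906634, minus strand, base 2) have the match just inside the transcribed sequence. The Ift57 stretch lies at chr16:49699199-49699228 on the plus strand, with the match at base -87. The shorter run GTTGCC, which overlaps this consensus, was found on either strand in 22 of the 51 members and in 14.8% of all listed genes with a promoter. By role it was found in 9 of 14 transition zone members with a promoter, 6 of 13 IFT-B members, 3 of 11 BBSome members, 2 of 5 IFT-A members, 1 of 3 dynein-2 members and 1 of 5 membrane signaling members. Several spellings of the motif were tried before these were kept, so the shares are a description, and a match is not a shown binding site.

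Each of the 57 members was detected in each library, with 1.38 as the lowest value. Levels are given on the deposited log2 scale, which is close to log2(value + 1) of a value that is probably FPKM and thus per gene length. Of all genes, 257 have a value below 0, which such a transform cannot give, so a further step that no source used here states was applied. No member has a value below 0. The wild-type mean of the members ranged from 1.46 for Cep290 to 5.86 for Arl3, with a median of 3.41, whereas the median of all genes was 3.02. Cep290 encodes a large transition zone protein, and Arl3 encodes the small GTPase that releases lipid-modified cargo inside the cilium.

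Subunits of one complex did not share one level. In IFT-B, the wild-type mean was 5.32 ± 0.0629 for Ift20 (SD, n = 4), a subunit that also works at the Golgi, and 2.03 ± 0.066 for Ttc30b. The reads of Ttc30b may be split with its near-identical copies Ttc30a1 and Ttc30a2, so its value is uncertain. In IFT-A the range went from 4.42 ± 0.0651 for Ift43 to 2.48 ± 0.111 for Wdr19. The dynein-2 heavy chain gene Dync2h1, which encodes the motor itself, was lowest of its group at 1.89 ± 0.0565, and the intermediate chain gene Wdr34 was highest at 4.20 ± 0.0907. Among the BBSome genes, Arl6, the GTPase that recruits the coat to membranes, had 3.48 ± 0.141, and the chaperonin-like assembly gene Bbs10 had 1.58 ± 0.0491. Transition zone levels ran from 4.08 ± 0.115 for B9d1 down to the value of Cep290. In membrane signaling, Gpr161, the receptor that holds Hedgehog signaling down at rest, was lowest at 3.14 ± 0.0742.

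This order was nearly the same in the mutants. Across the 57 genes, Spearman's rho of the genotype means was 0.991 between wild-type and Cilk1-/-, 0.988 between wild-type and compound mutant and 0.982 between the mutants. These are correlations across genes, which are not independent replicates. The median SD of a member among replicates was 0.0629 in wild-type, 0.0542 in Cilk1-/- and 0.131 in the compound mutant.

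**Figure D1:**
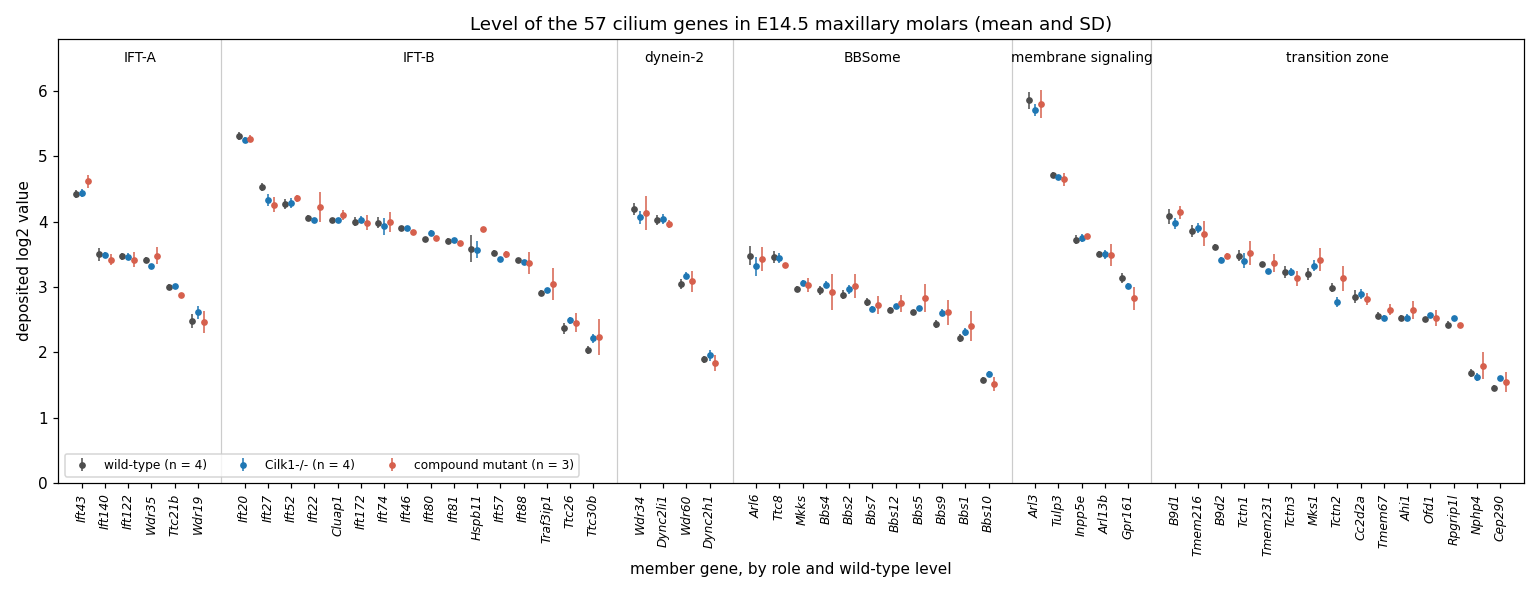
Mean level of each of the 57 members in wild-type (n = 4), Cilk1-/- (n = 4) and compound mutant (n = 3) molars, on the deposited log2 scale, with members along the horizontal axis by role and bars giving the SD. The spread between genes, from 1.46 to 5.86 in wild-type, is much wider than the distance between genotypes for any one gene.

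The targeted gene, listed under its older symbol Ick (chr9:78109192-78172107), was lower in both mutants. In wild-type it had values of 3.47, 3.58, 3.45 and 3.60, in Cilk1-/- of 2.86, 2.72, 2.84 and 2.76, and in the compound mutant of 2.67, 2.65 and 2.60. No mutant library reached the wild-type range. The difference from wild-type was -0.73 in Cilk1-/- (limma, adjusted p = 0.000224) and -0.89 in the compound mutant (adjusted p = 6.22e-05). A block for the replicate number gave adjusted p-values of 0.0229 and 0.0130 in limma. Over all libraries each difference had an exact two-sided permutation p of 0.0286, which treats same-numbered wild-type and Cilk1-/- libraries as independent. For Cilk1-/-, an exact two-sided permutation test that swapped genotype only within same-numbered pairs, added after the data were seen, gave p = 0.125, the smallest that 4 pairs allow, with Ick lower in 4 of 4 pairs. The value covers the whole gene, so the deleted exon itself was not seen.

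The tissue label was checked with marker lists. Summed after undoing the log2(value + 1) step, 6 dental epithelium markers such as Krt14 and Epcam reached 807 to 1072 in the wild-type and Cilk1-/- libraries, and 6 dental mesenchyme markers such as Msx1 and Pax9 reached 576 to 740. One library stood furthest apart. Compound mutant replicate 1 had the lowest sum of both dental lists, at 471 and 428, and lay at -48.5 on the first principal component of all genes, where the other libraries lay between -6.63 and 11.2. The 7 listed markers of multiciliated cells, which bear motile cilia, summed to 44.9 in that library, to 6.71 and 7.13 in the other compound mutant libraries, and to between 5.25 and 6.29 in the 8 others. Foxj1, a main regulator of motile cilia, had 3.71 there, 1.24 and 1.41 in the other compound mutant libraries, and at most 1.12 in wild-type and Cilk1-/-. The 5 neuron markers summed to 175 in compound mutant replicate 1 and to 31.8 and 60.3 in replicates 2 and 3. Their sums were between 16.8 and 22.8 in wild-type and, without overlap, between 27.1 and 30.1 in Cilk1-/-. Compound mutant replicate 3 had dental sums of 1104 and 471 and lay at -28.9 on the second component, where the others lay between -11.8 and 13.5, and replicate 2 had an epithelium sum of 696. The 5 skeletal muscle markers summed to between 7.10 and 22.1 in wild-type, 14.4 and 39.5 in Cilk1-/- and 4.70 and 6.61 in the compound mutant. The 4 proliferation markers summed to between 217 and 243 in wild-type, 174 and 198 in Cilk1-/- and 168 and 208 in the compound mutant, and Mki67 differed from wild-type by -0.27 (adjusted p = 0.0240) and -0.43 (adjusted p = 0.00328). The part of these lists in the members' values was not tested. Counts of members in the compound mutant, and the members that passed the adjustment there, are given with and without replicate 1.

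Loss of Cilk1 alone left the transcripts of the transport and gate machinery close to wild-type. None of the 57 members reached an adjusted p under 0.05 with a change of at least 1.5-fold in Cilk1-/- (limma over all genes, Benjamini-Hochberg), where 0.37% of all genes did. At an unadjusted p under 0.05, 4 members were lower and 3 were higher, which is 12.3% of the members, against 20.7% of all genes (11.1% lower and 9.57% higher). Compound mutant replicate 1 is not in this comparison but enters the shared estimate of the spread. Without it, 6 members were lower and 8 were higher, against 25.1% of all genes in either direction, so the lower share of the members did not hold. The 95% interval of the difference lay inside 1.5-fold for 57 of 57 members, as it did for 91.4% of all genes. With the replicate block it also did so for 57 members in each comparison. The median difference of the members was 0.0027 on the deposited log2 scale, and that of all genes was 0.0032.

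B9d2 was the member whose change passed the adjustment in Cilk1-/- in the fit of all 11 libraries. Of all genes, 2.44% had an adjusted p under 0.05 at any fold there. A fit of only wild-type and Cilk1-/- passed more members, as given at the end. B9d2 encodes a B9 domain protein of the transition zone and lies at chr7:25680780-25686558. Its values were 3.56, 3.67, 3.60 and 3.59 in wild-type, and 3.36, 3.43, 3.43 and 3.45 in Cilk1-/-. The groups did not overlap, and the compound mutant libraries, at 3.46, 3.52 and 3.45, also lay below every wild-type library. The B9d2 difference from wild-type was -0.19 for Cilk1-/- (SE 0.0383, adjusted p = 0.0374) and -0.13 for compound mutants (adjusted p = 0.0803). With the replicate number as a block, the adjusted p in Cilk1-/- was 0.188. Each library was also left out in turn, and 8 of these 11 fits gave B9d2 an adjusted p of 0.05 or more, with the difference between -0.20 and -0.17 in all 11.

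Other transition zone members did not pass the adjustment in Cilk1-/- in the fit of all libraries. Tctn2, a tectonic protein of the same gate, had values of 3.04, 2.96, 2.90 and 3.06 in wild-type and 2.72, 2.83, 2.84 and 2.69 in Cilk1-/-. Its difference was -0.22 (adjusted p = 0.151), although the groups did not overlap. With compound mutant replicate 1 left out of the fit, the adjusted p of Tctn2 was 0.055. Rpgrip1l, a scaffold of the gate, differed by 0.10 (adjusted p = 0.241), and B9d1, which encodes a partner of the B9d2 protein, differed by -0.11 with overlapping groups. In all, 8 of the 15 transition zone members lay below the wild-type mean and 7 above it.

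Among IFT-B genes, Ift27 had the lowest p in Cilk1-/-. It encodes a small GTPase-like subunit that links the trains to BBSome-dependent exit of receptors. The values were 4.46, 4.61, 4.50 and 4.55 in wild-type and 4.44, 4.24, 4.36 and 4.28 in Cilk1-/-, so that the groups lay side by side without overlap. The difference was -0.20 (adjusted p = 0.103). With compound mutant replicate 1 left out of the fit, the adjusted p of Ift27 was 0.0716. Ift57 differed by -0.10 and Ift80 by 0.09, with adjusted p of 0.174 and 0.189. Of the 16 IFT-B members, 8 were below and 8 above the wild-type mean.

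In the remaining groups no member passed the adjustment in Cilk1-/- in the fit of all libraries. In the BBSome group, 8 of 11 members were above the wild-type mean and the group's median was 0.086, with Bbs9, a structural subunit, at 0.18 (adjusted p = 0.223). In IFT-A, Wdr35 had the lowest p, with a difference of -0.09 (adjusted p = 0.398), and in dynein-2 it was the intermediate chain gene Wdr60, at 0.13 (adjusted p = 0.334). In membrane signaling, 4 of 5 members were below the wild-type mean, and Gpr161 differed by -0.13 (adjusted p = 0.348).

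In the compound mutant, again none of the 57 members passed both thresholds against wild-type, where 1.25% of all genes did. At an unadjusted p under 0.05, 4 members were lower and 4 were higher, against 26.7% of all genes (13.8% lower and 12.9% higher). The 95% interval lay inside 1.5-fold for 57 of 57 members and for 85.8% of all genes. Without compound mutant replicate 1, 7 members were lower and 3 were higher at an unadjusted p under 0.05, against 22.65% of all genes in either direction, and the number of members below the wild-type mean went from 28 to 33.

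**Figure D2:**
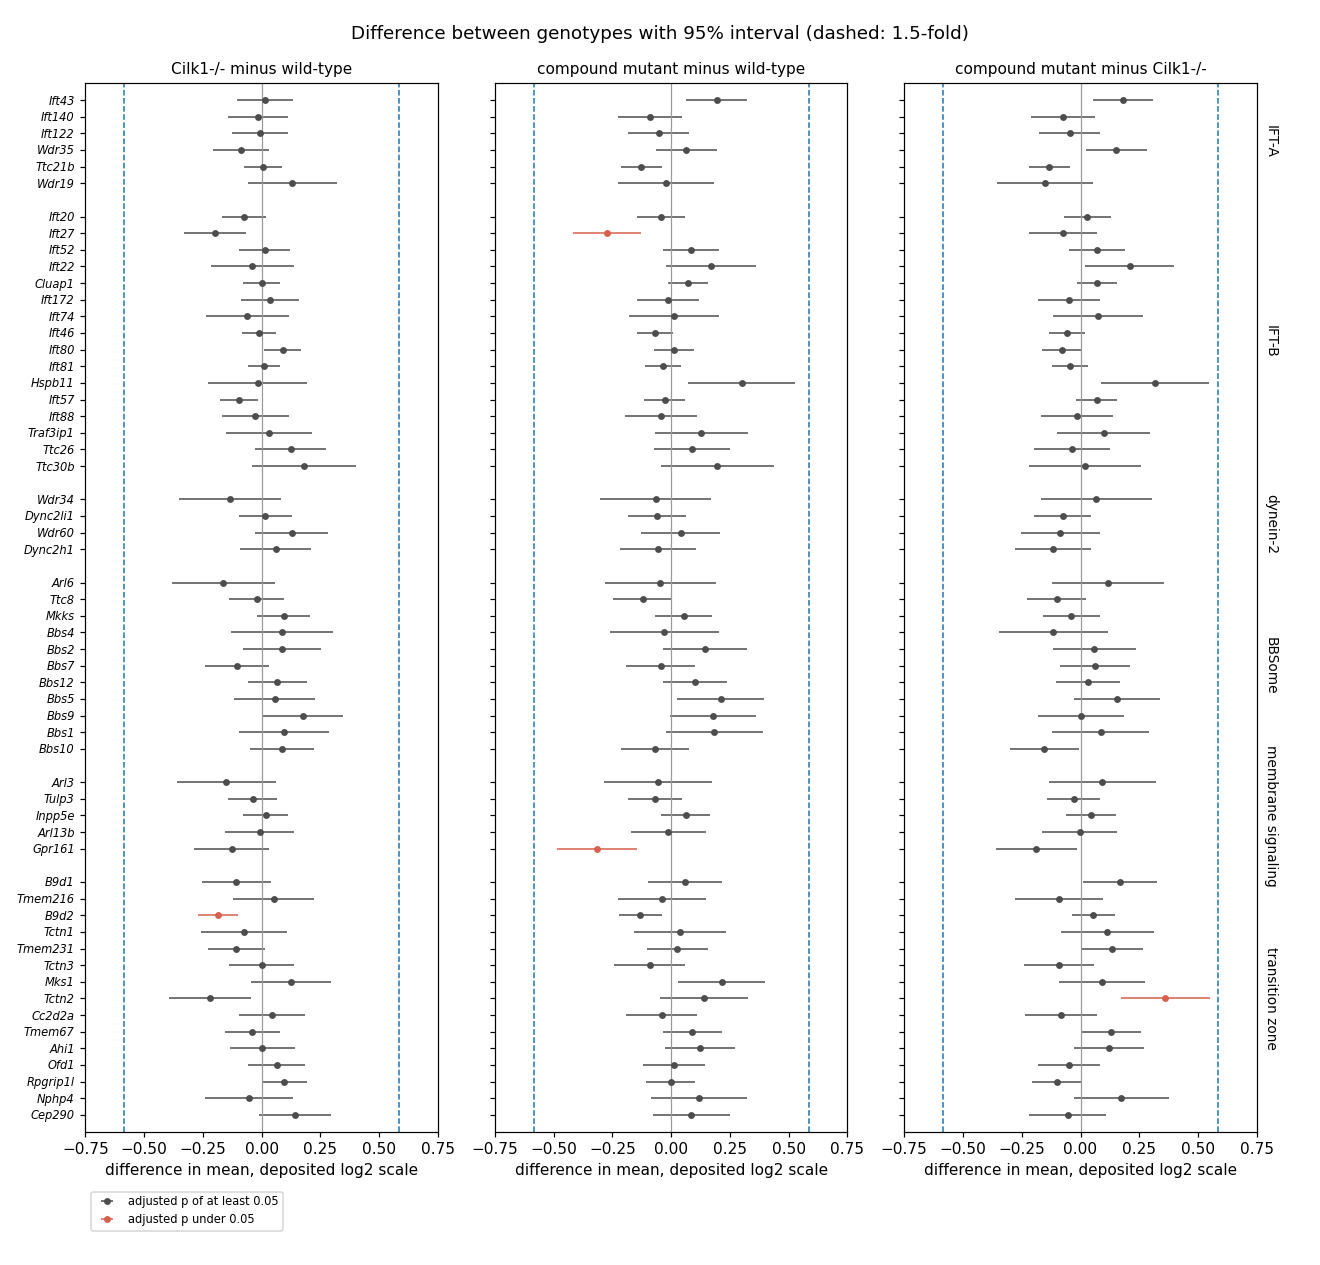
Difference between genotype means for each of the 57 members on the deposited log2 scale, with its 95% interval from limma, in the 3 comparisons. The 57 intervals of each panel lie between the dashed lines that mark 1.5-fold, and red marks the members with an adjusted p under 0.05.

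Ift27 and Gpr161 had an adjusted p under 0.05 in the compound mutant, where 6.58% of all genes did at any fold. Ift27 (chr15:78159463-78174107) had values of 4.34, 4.30 and 4.13, all below the 4 wild-type libraries. The difference was -0.27 (SE 0.065, adjusted p = 0.0369), and without replicate 1 it was -0.32 (adjusted p = 0.0359). Gpr161 (chr1:165295789-165326745) had values of 3.18, 3.21, 3.04 and 3.14 in wild-type, between 2.96 and 3.06 in Cilk1-/-, and 2.77, 2.68 and 3.03 in the compound mutant. Compound mutant replicate 3 lay just under the lowest wild-type library, and replicates 1 and 2 lay far below it. The difference was -0.32 (SE 0.0775, adjusted p = 0.0405), and without replicate 1 it was -0.29 (adjusted p = 0.0929). With the replicate block the adjusted p-values were 0.161 for Ift27 and 0.178 for Gpr161. When each library was left out in turn, the adjusted p was 0.05 or more in 7 of 11 fits for Ift27 and in 9 of 11 for Gpr161. The label-set term, which separates 3 wild-type and 3 Cilk1-/- libraries from 1 of each and the 3 compound mutants, also left no member with an adjusted p under 0.05 in any comparison.

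Hspb11, whose protein forms a pair with the Ift27 protein inside IFT-B, went the other way. Its values in the compound mutant were 3.87, 3.90 and 3.89, above those of 3.37, 3.76, 3.76 and 3.46 in wild-type and of 3.74, 3.48, 3.45 and 3.61 in Cilk1-/-. The 3 compound mutant libraries lay close together and above all 8 others, while wild-type itself was spread widely. The difference from wild-type was 0.30 (SE 0.103, adjusted p = 0.104), and without replicate 1 it was 0.31 (adjusted p = 0.164). Hspb11 lies at chr4:107253593-107279938.

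A pair of IFT-A genes parted in a similar way. Ift43 (chr12:86082541-86162459), a small IFT-A subunit, had 4.74, 4.56 and 4.56 in the compound mutant, above the highest wild-type value of 4.48 and the highest Cilk1-/- value of 4.50. Ttc21b (chr2:66184327-66256617), a large IFT-A subunit, had 2.87, 2.88 and 2.88, below the lowest of the others at 2.96. Against wild-type the differences were 0.19 for Ift43 (adjusted p = 0.0705) and -0.13 for Ttc21b (adjusted p = 0.0781), so neither passed the adjustment. Without replicate 1, the Ift43 difference was 0.14 and that of Ttc21b was -0.12.

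**Figure D3:**
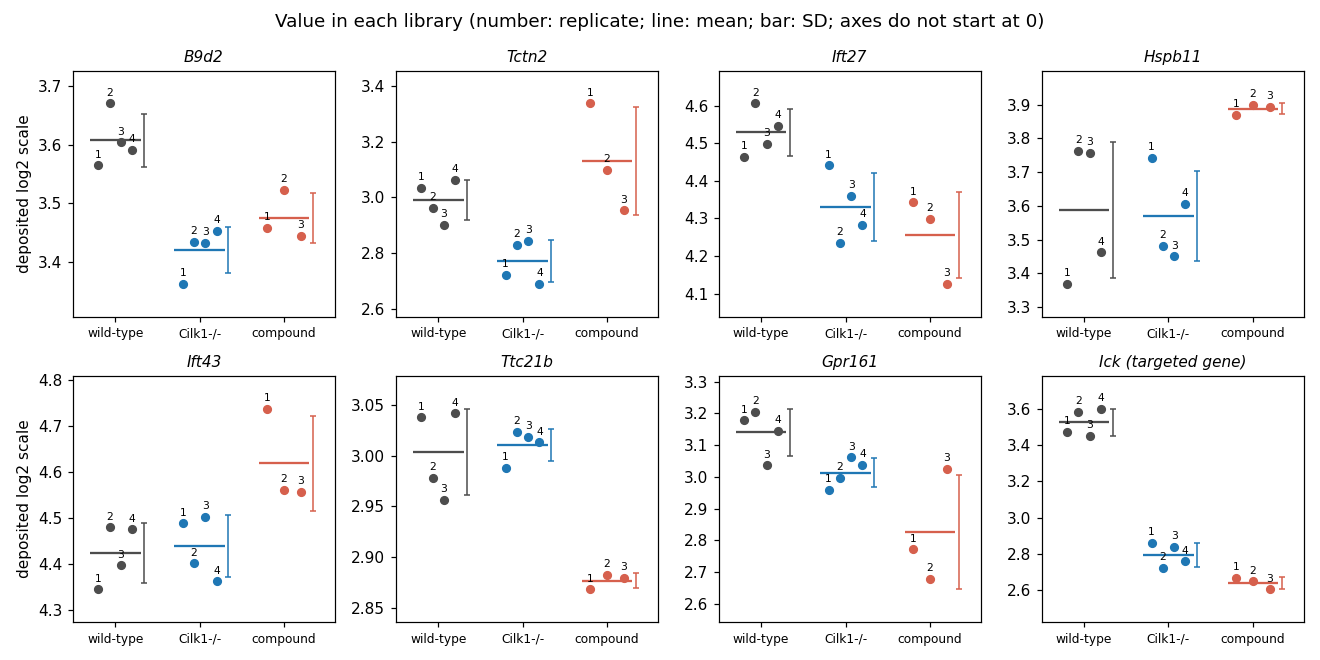
Value of 7 members and of the targeted gene Ick in each library on the deposited log2 scale, by genotype, with the replicate number at each point, a line for the mean and a bar for the SD. B9d2 and Ift27 lie lower in both mutants, Hspb11 and Ift43 lie higher in the 3 compound mutant libraries, and the vertical axes differ and do not start at 0.

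Between the mutants, which differ by the PCS1–MRCS1 deletion and in part by label set, none of the 57 members passed both thresholds, where 0.543% of all genes did. Here and against wild-type, genotype and label set cannot be fully told apart, since label set 1 holds no compound mutant. At an unadjusted p under 0.05, 3 members lay lower in the compound mutant and 8 lay higher, or 19.3%, against 23.2% of all genes (12.3% lower and 10.9% higher). Without compound mutant replicate 1 the balance turned, with 10 members lower and 2 higher, against 20.3% of all genes in either direction, so that 1 library decided which direction held more members. The 95% interval lay inside 1.5-fold for 57 of 57 members and for 87% of all genes. This comparison and the one above share the compound mutant libraries and are not independent.

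Tctn2 (chr5:124598749-124627738) was the member with an adjusted p under 0.05 between the mutants, where 3.33% of all genes had one at any fold. Its compound mutant values of 3.34, 3.10 and 2.95 lay above the 4 Cilk1-/- libraries, of which the highest had 2.84. The difference was 0.36 (SE 0.0854, adjusted p = 0.0492). Replicate 1 was the highest, and without it the difference was 0.26 (adjusted p = 0.0871). With the replicate block the adjusted p was 0.226, and leaving out each library in turn gave an adjusted p of 0.05 or more in 9 of 11 fits. The compound mutant mean of Tctn2, 3.13 ± 0.195 (SD, n = 3), lay above the highest wild-type library at 3.06. Compound mutant replicate 3 lay inside the wild-type range, and replicates 1 and 2 lay above it. The difference from wild-type was 0.14 (limma, adjusted p = 0.313).

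Some genes of the other groups were also read between the mutants. Bbs10 differed by -0.15 (adjusted p = 0.195), Dync2h1 by -0.12 (adjusted p = 0.364) and Gpr161 by -0.19 (adjusted p = 0.182). Hspb11 differed by 0.32 (adjusted p = 0.109), and Ttc21b by -0.13 (adjusted p = 0.0848). Wdr35 and Ift22 were higher at an unadjusted p under 0.05, by 0.15 and 0.21, with adjusted p of 0.158 and 0.182. Without replicate 1 the Wdr35 difference was 0.08 (adjusted p = 0.379) and that of Dync2h1 was -0.19 (adjusted p = 0.165). For Ift22, an IFT-B GTPase, replicate 1 had 4.50, whereas replicates 2 and 3 had 4.10 and 4.09. Without replicate 1 its difference was 0.07 (adjusted p = 0.378).

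The higher members of the compound mutant were mostly high in replicate 1. That library had the highest of the 11 values for 33 of the 57 members (57.9%), against 22.9% of all genes. By role these were 8 of 11 BBSome genes, 11 of 15 transition zone genes, 8 of 16 IFT-B genes, 3 of 6 IFT-A genes, 2 of 4 dynein-2 genes and 1 of 5 membrane signaling genes. The median deviation of the members from their wild-type mean was 0.14 in replicate 1, and -0.01 and -0.04 in replicates 2 and 3, while the median over all genes was -0.0022 in replicate 1.

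The role groups did not move alike in that library. The BBSome group had a median deviation of 0.21 and the transition zone group of 0.17, whereas the membrane signaling group had -0.18. Traf3ip1, an IFT-B subunit, had 3.32 in replicate 1, and 2.92 and 2.89 in the others. Bbs1, a BBSome subunit, had 2.66 against 2.32 and 2.22, Bbs5 had 3.06 against 2.81 and 2.62, and Mks1, a transition zone gene, had 3.61 against 3.39 and 3.26. Nphp4, another gate component, had 2.04 against 1.69 and 1.66. In the membrane signaling group, Arl3 had 5.59 in replicate 1 against 6.03 and 5.79, and Arl13b, a GTPase of the ciliary membrane, had 3.35 against 3.46 and 3.68.

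These genes were picked after their values in replicate 1 were seen, so their values without it are a description. Without replicate 1, their differences from wild-type were -0.01 for Traf3ip1, 0.05 for Bbs1, 0.10 for Bbs5, 0.12 for Mks1 -0.0021 for Nphp4, 0.05 for Arl3 and 0.06 for Arl13b. Replicate 1 is the library with the high sums of multiciliated and neuron markers and the low sums of dental markers, and the part of these cell types in the values was not tested. Of the 22 members with GTTGCC near the gene start, 15 had their highest value in replicate 1, with a median deviation of 0.17. Of the 29 members with a promoter that lacked it, 15 did, with a median deviation of 0.14. For the full consensus, it was 4 of 6 members with a match and 26 of 45 without. The spellings were kept out of several, and the library was singled out by the members' values. The split is therefore a description, and a link of motif and level was not tested.

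**Figure D4:**
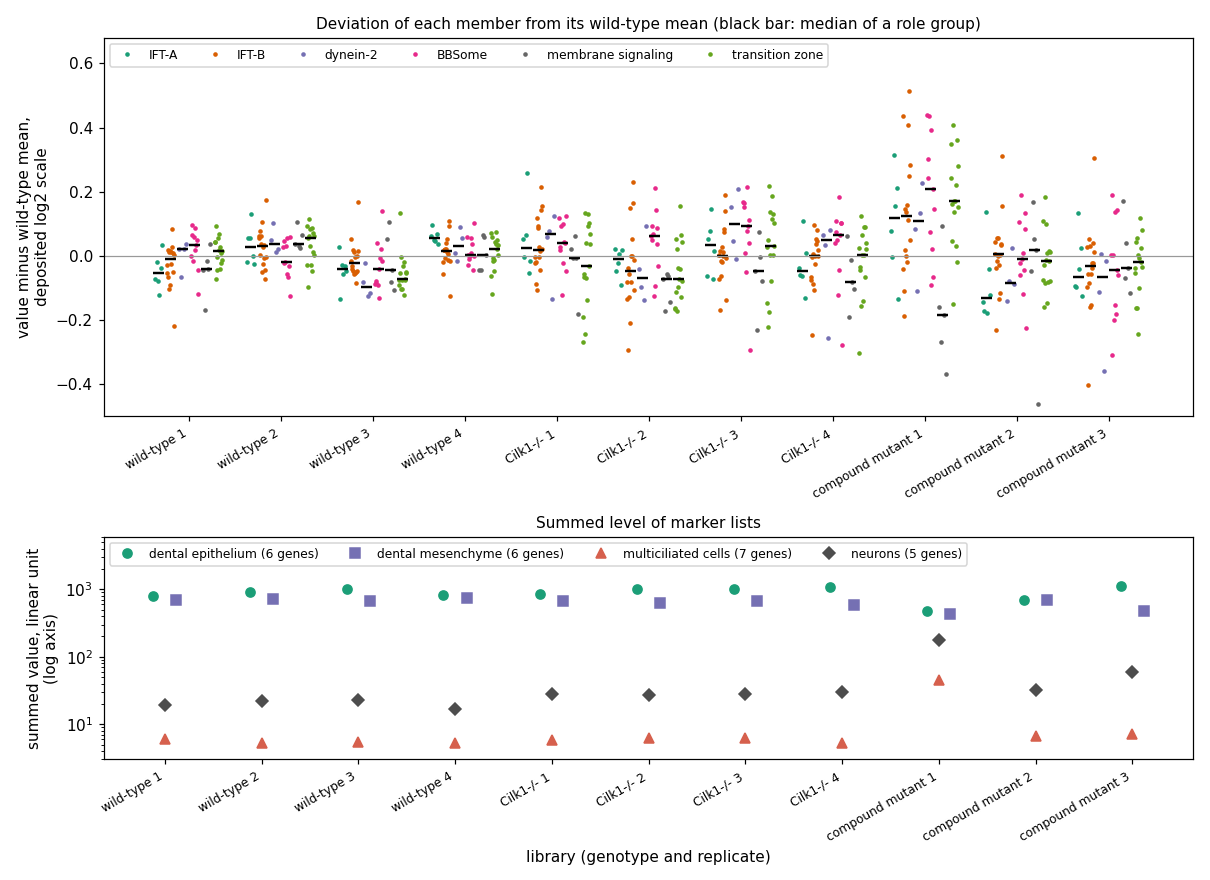
Upper plot, value of each member minus its wild-type mean in each of the 11 libraries, coloured by role, with black bars for the median of a role group. Lower plot, summed linear value of 4 marker lists on a log axis. In compound mutant replicate 1, 5 of the 6 role groups lie above 0 and membrane signaling lies below, in the library where the multiciliated sum is 44.9.

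Further genes of cilia were read from lists of motors and kinases, more transport and transition zone subunits, basal body, CPLANE and Rab genes, and ciliary membrane genes. Of 70 listed genes, the targeted gene alone passed both thresholds in Cilk1-/- and in the compound mutant against wild-type, and none did between the mutants. Of all genes, 0.37%, 1.25% and 0.543% did so in these comparisons. At an adjusted p under 0.05 and any fold, 1 of the 70 was lower and none was higher in Cilk1-/-, against 2.44% of all genes. In compound mutants 3 lay lower and 2 lay higher than in wild-type, against 6.58% of all genes. Between the mutants 4 lay lower and none higher, against 3.33% of all genes. Dynll2, a dynein light chain gene, was higher by 0.46 in the compound mutant than in wild-type (adjusted p = 0.0196), and Fuz, a planar polarity effector of ciliogenesis, by 0.29 (adjusted p = 0.0472). Tmem218 of the transition zone fell by 0.19 (adjusted p = 0.0333), and Rsg1, a GTPase that works with Fuz, fell by 0.31 (adjusted p = 0.0475). Without replicate 1 the differences were 0.32 for Dynll2 (adjusted p = 0.0129), 0.22 for Fuz (adjusted p = 0.117), -0.19 for Tmem218 (adjusted p = 0.0679) and -0.27 for Rsg1 (adjusted p = 0.106). Between the mutants, Rsg1 (-0.58), Efcab7 (-0.38) and the centriolar satellite gene Pcm1 (-0.21) were among those lower in the compound mutant. Under the replicate block, the smallest adjusted p among these genes other than Ick was 0.125, for Dynll2.

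In 9 of the 57 members, exons share bases with those of a listed neighbour on the other strand in GENCODE vM21, and the strandedness of counting is not stated. Tctn1 with Hvcn1, Cep290 with 4930430F08Rik and Inpp5e with Pmpca shared the most, at 1574, 881 and 874 bases, and reads there cannot be assigned with certainty. None of the 4 members with an adjusted p under 0.05 in the fit of all libraries is among the 9.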

How the data were processed

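Tooth germ RNA was mapped with HISAT2 2.0.5 to mm10 and counted with featureCounts 1.5.0-p3, per the submitters' processing notes, and the authors calculated FPKM and tested counts with edgeR. The deposited values are on a log2 scale close to log2(value + 1), probably of FPKM, but 257 genes have values below 0, so a further step was applied that is not given in the sources used here. Counts were not used here and depth is unknown, so p-values measure only the spread between libraries, which may be technical. Fold changes on this scale understate changes of low genes.

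All 16755 genes were fitted with limma 3.58.1 in R 4.3.3 (lmFit, eBayes with trend and robust) over 11 libraries, with Benjamini-Hochberg adjustment over all genes. A call needed an adjusted p under 0.05 and a 1.5-fold change. The fit was tested on simulated data. Members and lists were chosen with earlier results of these data known. Named were members with an adjusted p under 0.05, the lowest p per role and comparison, the highest and lowest wild-type level per role and the targeted gene. Others, such as Traf3ip1, Bbs1, Mks1, Nphp4, Ift22 and Arl13b, were named after their values were seen.

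Deviations of same-numbered wild-type and Cilk1-/- libraries from their means had correlations of -0.74, -0.89, -0.85 and -0.79 over all genes, so these libraries are not independent, and blocked values are given where they change a result. With such dependence the printed SDs, SEs, intervals and p-values may be too small. Promoters came from RefSeq (GRCm38.p6; 250 bases before to 50 after the start; 51 of 57 members matched) and gene positions from GENCODE vM21 (GRCm38). Plots were drawn with Python 3.11.15 and matplotlib 3.10.9. Values of some genes of the wider lists are not reported here.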

Additional observations from a re-analysis of the deposited data

Results flagged for a closer look

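Within the groups of 4 libraries, 116 sets of values (57 members and the targeted gene, in wild-type and in Cilk1-/-) were read for a single library far from the other 3, by Dixon's ratio. Chance gives about 1 in 20 such sets, and 5 were found. Ift22 had 4.12 in wild-type replicate 2, where the others had 4.03 to 4.04. Ift80 had 3.69 in wild-type replicate 2, below 3.75 to 3.76. Bbs5 had 2.66 in wild-type replicate 3, above 2.60 to 2.61. Bbs7 had 2.72 in Cilk1-/- replicate 3, above 2.64 to 2.65, and Ahi1 had 2.45 in Cilk1-/- replicate 2, below 2.55 to 2.57. The compound mutant group, with 3 libraries, was not read this way.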

How the results depend on the processing

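The number of members past both thresholds was 0 in every comparison and alternative run, and the number with a 95% interval inside 1.5-fold was 54 to 57. The counts at looser thresholds moved. With the replicate number as a block, members with an adjusted p under 0.05 numbered 0 in each comparison, and those with an unadjusted p under 0.05 numbered 3 in Cilk1-/-, 5 in the compound mutant and 3 between the mutants, against 13.8%, 17.2% and 14.3% of all genes. A block with the compound mutants in pair 4 gave 0, and 2, 2 and 2. The label-set term gave 0 in each comparison, and 4 unadjusted between the mutants. A fit of only the genotypes compared gave 4 adjusted and 16 unadjusted in Cilk1-/-, 0 adjusted in the compound mutant, and 0 and 5 between the mutants. Median centring gave 0 adjusted in Cilk1-/-, and genes with a mean of at least 1 gave 0 adjusted between the mutants. For these alternative fits other than the replicate block, the share of all genes is not given. Their counts are therefore a description of the fits and not a result about the members. Leaving out 1 library gave 0 to 2, 0 to 6 and 0 to 4 members at an adjusted p under 0.05 in the 3 comparisons. At an unadjusted p under 0.05 it gave 3 to 14, 7 to 15 and 5 to 15 members. Of all genes, 15.5% to 25.1%, 19.9% to 36.6% and 18.1% to 31.2% had an unadjusted p under 0.05 in these fits. The highest counts came without a compound mutant library. The causes of these moves were not tested. No difference of a gene named by the rule changed sign in the comparison that named it, whereas without compound mutant replicate 1 the differences of Traf3ip1, Nphp4, Arl3 and Arl13b from wild-type did, and the median difference of the members stayed between -0.04 and 0.06. The block changed no other call. The targeted gene kept its call except with the compound mutant placed in pair 4 (adjusted p = 0.109 against wild-type). Depth is unknown, so small differences of low members were limited by the spread of 3 or 4 libraries.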
